A study of Homo sapiens with 4 samples.

Results

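Aminoacyl-tRNA synthetases, the enzymes that load each amino acid onto its transfer RNA, were compared between their cytosolic and mitochondrial sets in MOLM-14, an established human acute myeloid leukemia cell line. The members were a list of 38 gene symbols, 22 cytosolic (19 synthetases and the 3 scaffold proteins of the multi-synthetase complex) and 16 mitochondrial (symbols ending in 2). A member was measured where a row of the deposited table is annotated with that symbol alone, and the brightest such row was taken. In all 36 of the 38 were found among 18377 genes tested, 20 cytosolic and all 16 mitochondrial. The scaffolds AIMP2 and EEF1E1 had no such row. Cells received DZNep at 2 µM or its solvent DMSO, and RNA was measured on whole-transcript arrays after 24 h, 2 arrays with DZNep and 2 with DMSO. DZNep (3-deazaneplanocin A) inhibits S-adenosylhomocysteine hydrolase and so holds back methyltransferases. The labels call the replicates biological but do not describe how the cells were grown apart. The p-values therefore cover the variation among these 4 arrays and no more, and part of it may be technical.

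In human cells the cytosolic enzymes feed the ribosomes of the cytoplasm, and a separate set, encoded in the nucleus and imported, charges the tRNAs inside mitochondria. GARS1 and KARS1 serve both compartments from 1 gene each. When uncharged tRNA builds up, the kinase GCN2 raises translation of the transcription factor ATF4, which switches on amino acid synthesis, amino acid import and many cytosolic synthetase genes through a composite C/EBP-ATF site in their promoters.

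The arrays were alike in overall level, with a median log2 intensity between 6.99 and 7.08. Of the 12 myeloid markers checked, 10 were measured, at log2 intensities from 6.55 to 12.82, with LYZ and CSF1R higher and FLT3 lower with DZNep. Of 12 markers of T, B, erythroid and epithelial cells, 10 were measured, at 5.26 to 8.18, and none passed the test in limma, with 1 (KRT8, a keratin of epithelia, higher) at an unadjusted p under 0.05. With 1 array left out LYZ stayed between 0.451 and 0.616 and CSF1R between 0.45 and 0.481. Levels of different probe sets cannot be set against one another, so these ranges are only a loose check of the label. Precision is limited throughout by having 2 arrays a group.

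Most cytosolic synthetase genes were lower with DZNep, and few mitochondrial ones were. At a limma adjusted p under 0.05 over all genes tested, 16 of the 20 cytosolic genes fell and none rose (none rose at an unadjusted p under 0.05 either), with a median log2 fold change (DZNep minus DMSO) of −0.56. Among the 16 mitochondrial genes 2 fell and 1 rose, and their median was −0.04. GARS1 (−1.42) and KARS1 (−0.37), which serve both compartments, were counted as cytosolic only, and both fell. Over all 18377 genes 6.68% fell and 3.62% rose, and the median was 0.02. Both DZNep arrays lay below both DMSO arrays for 17 cytosolic and 5 mitochondrial genes, and above both for 0 cytosolic and 3 mitochondrial genes, where 23.9% of all genes lay below and 25.9% above. The difference between the lists was described and not tested. The lists also differed in signal, with log2 intensities from 7.381 to 9.874 in the mitochondrial and from 8.175 to 12.09 in the cytosolic members. Changes of dimmer genes can appear smaller on arrays, and what this adds to the contrast was not tested. With 1 array left out the cytosolic median stayed between −0.59 and −0.55. Such a fit has 1 array in a group and takes its spread from the other group alone. Its calls are therefore not comparable with those of all 4 arrays, and only effect sizes are given.

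**Figure D1:**
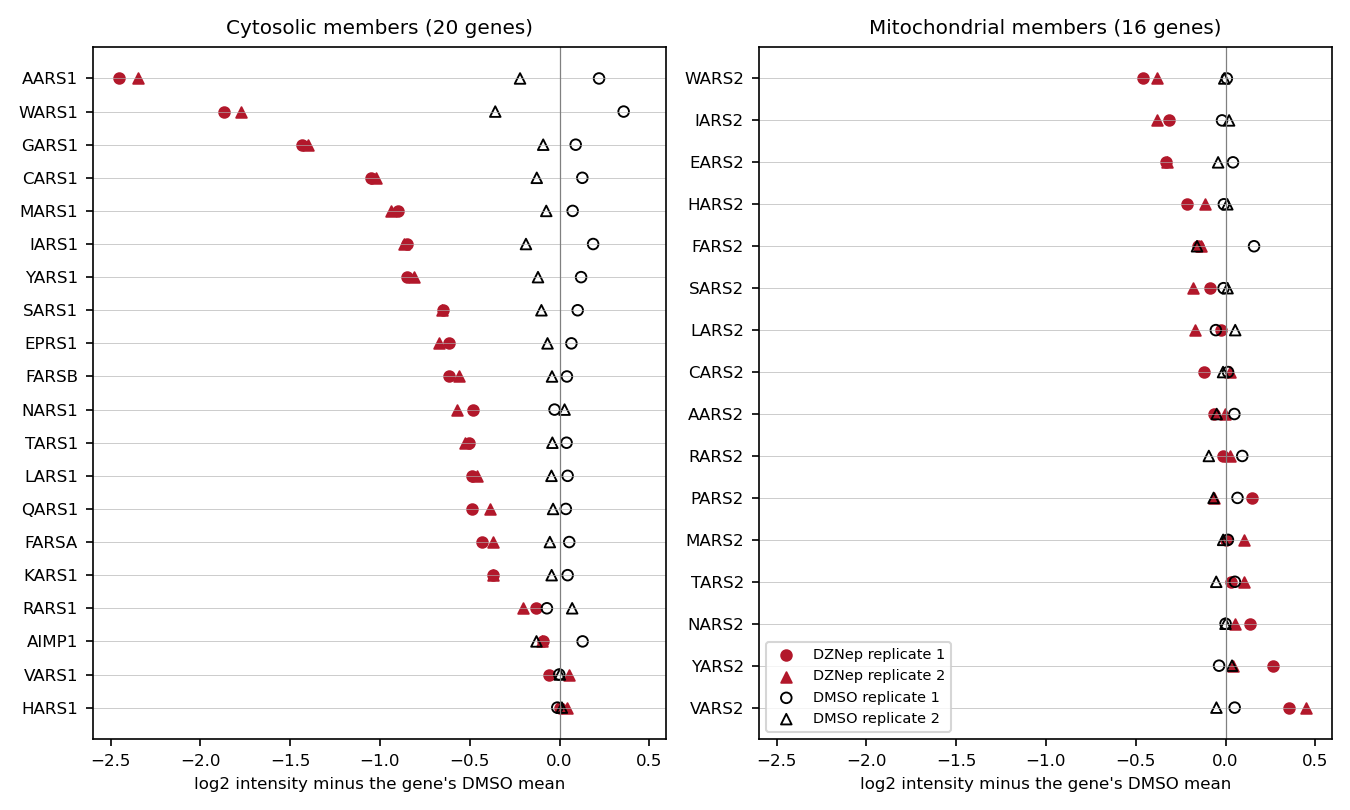
Log2 intensity of each measured member on each of the 4 arrays, as the difference from that gene's mean over the DMSO arrays, with filled red symbols for DZNep, open black symbols for DMSO, circles for replicate 1 and triangles for replicate 2. DZNep and DMSO symbols are apart for 17 of the 20 cytosolic genes on the left and overlap for 8 of the 16 mitochondrial genes on the right. Over all 18377 genes they overlap for 9236.

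AARS1, the alanyl-tRNA synthetase, had the third largest fall of any gene tested. Its log2 intensity was 9.42 and 9.53 with DZNep, against 12.09 and 11.66 with DMSO. The gap between groups was wider than the gap within either, and AARS1 was 5.29-fold lower with DZNep. On the log2 scale that is −2.40, with an SE of 0.14 and an adjusted p of 3.64e-05 in limma.

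WARS1, the tryptophanyl-tRNA synthetase, which is also induced by interferon, ranked 13 among all falls. It stood at 8.88 and 8.97 with DZNep, against 11.10 and 10.39 with DMSO. The DMSO arrays differed by 0.71 from each other, the widest such gap among the members, and still lay above both DZNep arrays. WARS1 changed by −1.82 on the log2 scale (SE 0.19, limma adjusted p = 0.000553). Leaving out the brighter DMSO array, replicate 1, gave −1.46, and leaving out the other gave −2.18.

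Another 2 free synthetases, those outside the multi-synthetase complex, fell more than 2-fold. GARS1, the glycyl-tRNA synthetase, had log2 intensities of 9.97 and 10.00 with DZNep, against 11.49 and 11.31 with DMSO, a change of −1.42 (SE 0.10, limma adjusted p = 9.06e-05). CARS1, for cysteine, had 8.71 and 8.74 with DZNep, against 9.89 and 9.63 with DMSO, a change of −1.04 (SE 0.11, limma adjusted p = 0.000568). The DZNep arrays are close together in both genes, while the DMSO arrays are 0.18 apart for GARS1 and 0.25 for CARS1.

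Smaller falls were found in 6 more genes of free synthetases. YARS1, the tyrosyl enzyme, had 9.47 and 9.51 with DZNep, against 10.44 and 10.20 with DMSO (log2 fold change −0.83, SE 0.11). SARS1, the seryl enzyme, had 10.28 and 10.27 with DZNep, against 11.02 and 10.82 with DMSO (−0.65, SE 0.10). The phenylalanyl enzyme is built from 2 kinds of subunit, and both genes fell. The beta subunit gene FARSB had 9.49 and 9.55 with DZNep, against 10.15 and 10.07 with DMSO (−0.59, SE 0.10). The alpha subunit gene FARSA had 10.65 and 10.72 with DZNep, against 11.14 and 11.03 with DMSO (−0.40, SE 0.10). NARS1, the asparaginyl enzyme, had a change of −0.53 and TARS1, the threonyl enzyme, one of −0.52. The limma adjusted p of these 6 genes lay between 0.0016 and 0.0301. With 1 array left out FARSA stayed between −0.45 and −0.35 and NARS1 between −0.57 and −0.48. FARSA lost its call with 16 subtracted from each intensity before log2 (limma adjusted p = 0.0731).

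Of the 12 genes of free synthetases only HARS1 and VARS1 did not pass. HARS1, the histidyl enzyme, had 9.23 and 9.27 with DZNep, against 9.21 and 9.24 with DMSO. VARS1, the valyl enzyme, which binds the elongation factor complex eEF1, had 9.51 and 9.61 with DZNep, against 9.56 and 9.56 with DMSO. In both genes the groups overlap. The limma 95% interval of the log2 fold change was −0.19 to 0.23 for HARS1 and −0.22 to 0.21 for VARS1, so a fall like that of FARSB lies outside either interval. VARS1 has 2 probe sets whose values are near-identical, so they are not independent measurements.

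In the multi-synthetase complex 6 of the 7 synthetases fell, with a median log2 fold change of −0.47 over the 7. MARS1, the methionyl enzyme, changed most, with 10.14 and 10.10 with DZNep, against 11.11 and 10.97 with DMSO (−0.92, limma SE 0.10, adjusted p = 0.000616). IARS1, the isoleucyl enzyme, had 10.76 and 10.75 with DZNep, against 11.80 and 11.43 with DMSO (−0.86, SE 0.13). The fused enzyme EPRS1, which charges both glutamate and proline, had 10.83 and 10.78 with DZNep, against 11.52 and 11.38 with DMSO (−0.64, SE 0.10). DZNep arrays were below DMSO arrays in all 3.

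LARS1, the leucyl enzyme that also senses leucine for mTORC1, had a change of −0.47, QARS1, the glutaminyl enzyme, −0.44, and KARS1, the lysyl enzyme, −0.37. Their limma adjusted p lay between 0.0135 and 0.0367. With 1 array left out LARS1 stayed between −0.52 and −0.43, QARS1 between −0.49 and −0.39 and KARS1 between −0.42 and −0.33. QARS1 and KARS1 lost the call with 16 subtracted before log2 (limma adjusted p of 0.0552 and 0.0831). RARS1, the arginyl enzyme, did not pass (−0.17, limma adjusted p = 0.39), although its arrays did not overlap, at 9.61 and 9.53 with DZNep against 9.67 and 9.81 with DMSO. The scaffold AIMP1 had 8.21 on each DZNep array, against 8.43 and 8.17 on the DMSO arrays, which lie on either side (−0.09, limma adjusted p = 0.713), and its value was 0.03 without DMSO replicate 1.

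The falls were found in both structural classes of synthetase. Of the 9 class I enzymes, whose active site is a Rossmann fold, 7 fell, with a median of −0.83. Of the 9 genes of class II enzymes, built on an antiparallel sheet, 8 fell, with a median of −0.53. FARSA and FARSB count as separate genes there. EPRS1 holds 1 domain of each class and was counted apart.

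In the mitochondrial set the 3 calls were small. WARS2, the tryptophanyl enzyme, had 7.54 and 7.61 with DZNep, against 8.001 and 7.986 with DMSO (log2 fold change −0.42, limma SE 0.09, adjusted p = 0.0222). IARS2, the isoleucyl enzyme, had 9.54 and 9.47 with DZNep, against 9.83 and 9.87 with DMSO (−0.35, SE 0.09, limma adjusted p = 0.0469). The valyl enzyme VARS2 rose, with 7.82 and 7.92 with DZNep, against 7.52 and 7.42 with DMSO (0.40, SE 0.10, limma adjusted p = 0.0315).

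With 1 array left out WARS2 stayed between −0.46 and −0.38, IARS2 between −0.38 and −0.31 and VARS2 between 0.35 and 0.45. IARS2 lost its call after quantile normalization (limma adjusted p = 0.091) and cyclic loess (0.0658). It also lost the call with a replicate block (limma adjusted p = 0.0673) or 16 subtracted before log2 (0.0987). VARS2 lost its call under median centring (limma adjusted p = 0.0612) and with 16 subtracted (0.0626). The direction of each stayed as given in all of these. EARS2, the glutamyl enzyme, missed the threshold at −0.33 (limma adjusted p = 0.0584), with 7.69 on each DZNep array against 8.06 and 7.98 on the DMSO arrays.

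The other 12 mitochondrial genes had log2 fold changes between −0.17 for HARS2 and 0.15 for YARS2. The seryl enzyme SARS2 stood at −0.13, the leucyl enzyme LARS2 at −0.10 and the cysteinyl enzyme CARS2 at −0.05. The arginyl enzyme RARS2 stood at 0.01, the prolyl enzyme PARS2 at 0.04, the methionyl enzyme MARS2 at 0.05, the threonyl enzyme TARS2 at 0.07 and the asparaginyl enzyme NARS2 at 0.09. None of the 12 passed the test in limma, adjusted or at an unadjusted p under 0.05. In FARS2, the phenylalanyl enzyme, DMSO replicate 1 alone stood high, at 8.08, beside 7.77 and 7.78 with DZNep and 7.76 on the other DMSO array. AARS2, the alanyl enzyme, had 8.18 and 8.24 with DZNep, against 8.29 and 8.19 with DMSO (−0.03, limma 95% interval −0.25 to 0.18). The groups overlap in 8 of the 16 mitochondrial genes and in 9236 of all 18377 genes, so this count is near the background. Without DMSO replicate 1 the median of the mitochondrial list was 0.01.

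The enzymes for the same amino acid in the 2 compartments were set side by side in 17 pairs, in which EPRS1 and FARS2 each stand in 2 pairs. The cytosolic gene had the lower log2 fold change in 16 pairs, and the median difference (cytosolic minus mitochondrial) was −0.52. In 12 pairs the cytosolic gene fell while the mitochondrial one was not called lower. The widest difference was between AARS1 and AARS2, at −2.37. Within an array, the log2 gap between these 2 genes was 1.24 and 1.29 with DZNep, against 3.81 and 3.46 with DMSO. For MARS1 over MARS2 it was 1.59 and 1.45 with DZNep, against 2.55 and 2.43 with DMSO, and for YARS1 over YARS2 it was 1.79 and 2.05 with DZNep, against 3.06 and 2.75 with DMSO. The sizes of these gaps depend on the probes, and only their change between groups can be read.

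This difference was lower on both DZNep arrays than on both DMSO arrays in 15 pairs, overlapped for RARS1 and RARS2, and was higher for HARS1 and HARS2. An exact permutation test of 1 pair over 2 and 2 arrays, two-sided, cannot give a p under 0.333, and no pair was below that. Both genes of the tryptophan and isoleucine pairs were called lower, with WARS1 at −1.82 and WARS2 at −0.42, and IARS1 at −0.86 and IARS2 at −0.35.

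**Figure D2:**
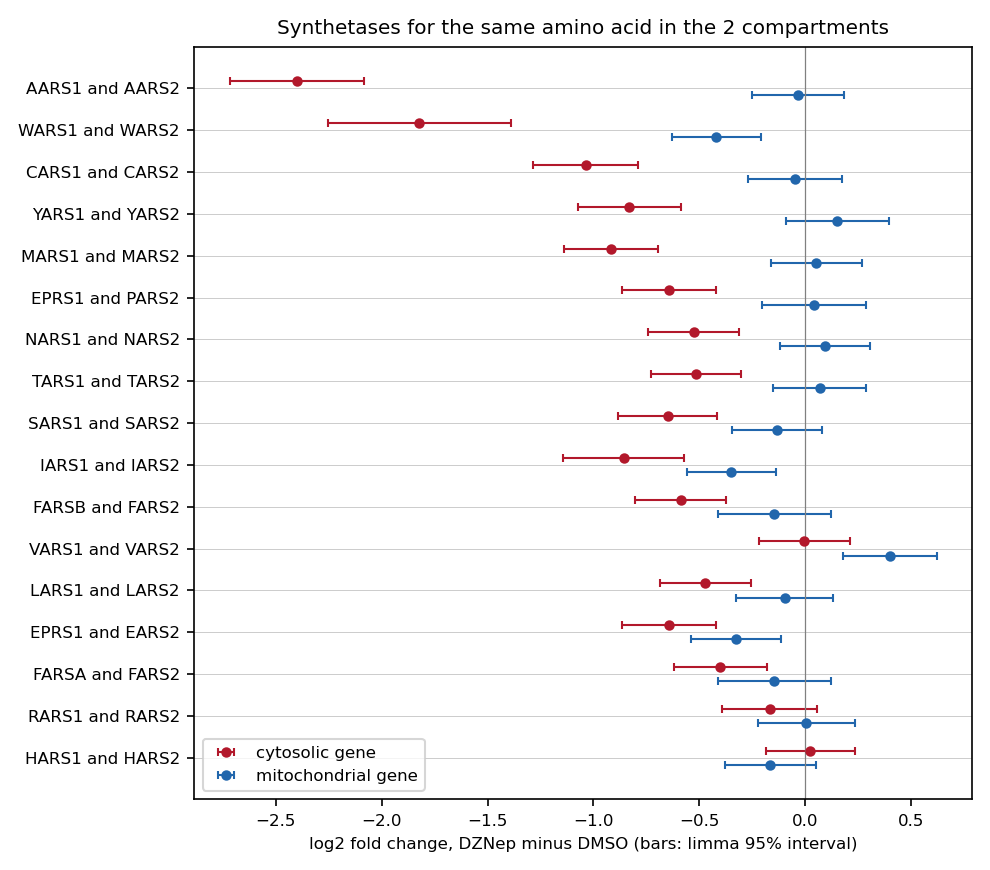
Log2 fold change (DZNep minus DMSO) of the cytosolic gene in red and the mitochondrial gene in blue for 17 pairs that charge the same amino acid, with limma 95% intervals from 2 arrays a group. Red lies left of blue in 16 pairs, with a difference of −2.37 for alanine, and right of it only for histidine.

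HARS1 and HARS2, the pair with the opposite order, lie head to head. In RefSeq on GRCh38.p14 the promoter window of HARS1 spans chr5:140691321-140691620 on the minus strand and that of HARS2 spans chr5:140691205-140691504 on the plus strand, so they share 184 bases. HARS1 changed by 0.02 on the log2 scale and HARS2 by −0.17 (8.50 and 8.60 with DZNep, against 8.70 and 8.72 with DMSO), and neither passed the test (limma adjusted p of 0.932 and 0.374).

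The DMSO arrays also differed from each other in the cytosolic genes. DMSO replicate 1 was above replicate 2 for 16 of the 20 cytosolic genes (80.0%) and 11 of the 16 mitochondrial genes, where 47.4% of all genes tested were. The median gap (replicate 1 minus 2) was 0.12 in the cytosolic and 0.03 in the mitochondrial list, and −0.01 over all genes. Across the 20 cytosolic genes the gap and the log2 fold change had a Pearson r of −0.77 and a Spearman rho of −0.71. Across the 16 mitochondrial genes these were 0.12 and 0.19, and across all 18377 genes −0.20 and −0.19. The points share the same 4 arrays, and the DMSO values enter both measures, so they are not independent. What this spread contributes to the falls was not tested beyond leaving arrays out. Between the DZNep arrays the median gap of the cytosolic list was −0.02.

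**Figure D3:**
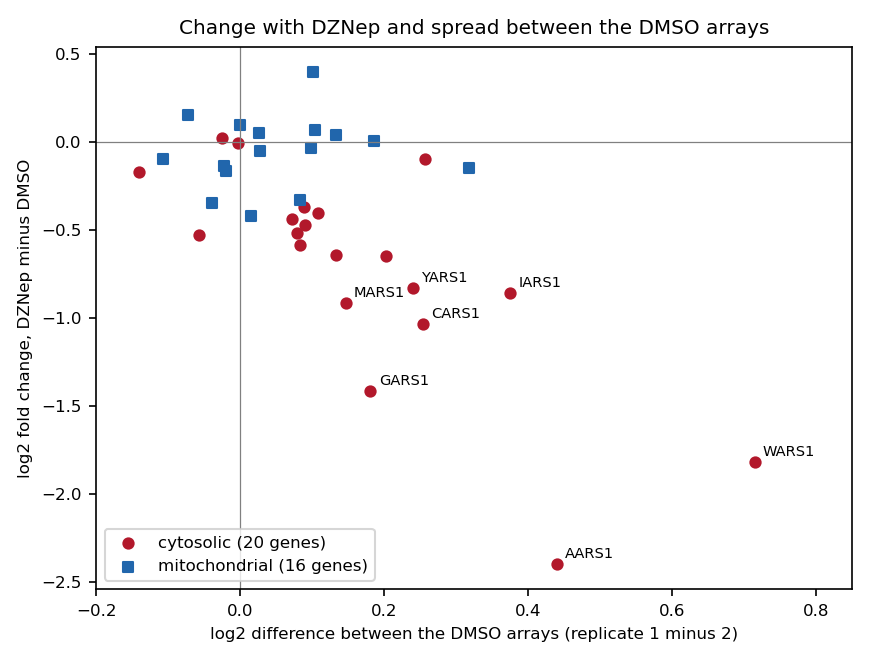
Log2 fold change (DZNep minus DMSO) against the log2 difference between the 2 DMSO arrays (replicate 1 minus 2), 1 point a gene, red circles for 20 cytosolic and blue squares for 16 mitochondrial members. WARS1, AARS1 and IARS1 have the widest gaps between DMSO arrays, at 0.71, 0.44 and 0.37, and lie among the genes with falls over 0.8.

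The sizes of the falls depended on which DMSO array was kept, while all 16 genes called lower stayed below 0. AARS1 had −2.18 without DMSO replicate 1 and −2.62 without DMSO replicate 2, and IARS1 −0.67 and −1.05. With 16 subtracted before log2, 13 of the 16 cytosolic genes kept the call, and FARSA, KARS1 and QARS1 lost it. The replicate block, filters on dim genes, other normalizations, intensity trend and mean over probe sets each left all 16 called lower.

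**Figure D4:**
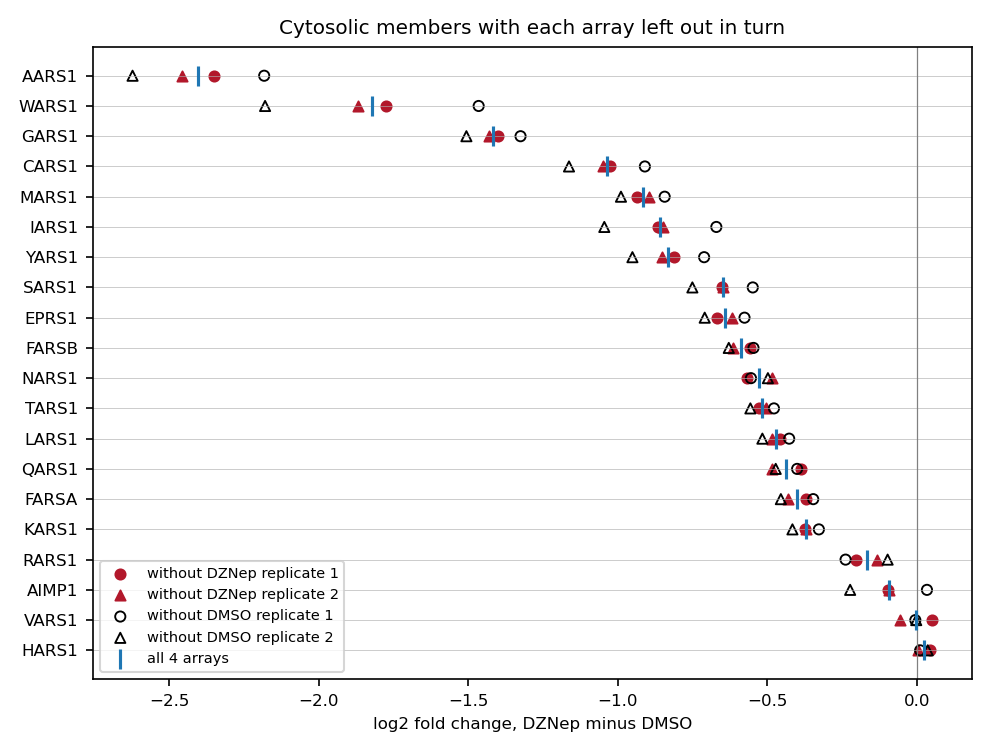
Log2 fold change (DZNep minus DMSO) of the 20 cytosolic members with each array left out in turn, with blue ticks for all 4 arrays. The 16 called genes stay below 0 in every case, and the spread is widest for WARS1, from −2.18 to −1.46.

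The promoters of the members were searched for the C/EBP-ATF site, since ATF4 is known to act on synthetase genes through it. RefSeq promoters (GRCh38.p14, 250 bases before to 50 after an annotated start) were found for 31 of the 36 measured members, 17 cytosolic and 14 mitochondrial, and LARS1, VARS1, YARS1, AARS2 and VARS2 had none. The motif was TGATGNAAN on either strand. It was present in 7 of 17 cytosolic genes (41.2%) and 1 of 14 mitochondrial genes (7.14%). Of all 35116 RefSeq promoters given, 3.61% held it, as did 3.59% of the 14210 tested genes with a promoter. Among genes called lower 4.37% held it, and among those at least 2-fold lower 12.6%. Both sets include the members, so these shares are not separate from the member counts. Of the 43 genes called lower with the motif 7 are cytosolic members, and AARS1, GARS1 and CARS1 are in the 2-fold set. A match is a run of letters and not a proven site, and a missing match says only that this window lacks these letters.

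Of the 8 matches 6 are shown with 15 bases on each side, 5′ to 3′ on the gene's strand, with the motif in capitals, because the resemblance between genes can be read from them directly.
AARS1, chr16:70289671-70289709, minus strand: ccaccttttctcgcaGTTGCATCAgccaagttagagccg
GARS1, chr7:30594829-30594867, plus strand: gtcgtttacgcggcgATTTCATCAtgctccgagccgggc
CARS1, chr11:3057403-3057441, minus strand: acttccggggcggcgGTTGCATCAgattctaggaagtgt
MARS1, chr12:57488048-57488086, plus strand: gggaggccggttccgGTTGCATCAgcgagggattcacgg
TARS1, chr5:33440951-33440989, plus strand: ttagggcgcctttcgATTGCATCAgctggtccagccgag
YARS2, chr12:32756071-32756109, minus strand: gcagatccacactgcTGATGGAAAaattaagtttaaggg

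In 6 of the 7 cytosolic genes the match holds the letters TGATGCAA on one strand or the other. Among the sequences shown, those of AARS1, CARS1 and MARS1 have the same 9 letters. The matches of GARS1 and of the mitochondrial YARS2 lack TGATGCAA. Of all promoters 0.866% hold TGATGCAA, a form chosen after the matches were seen. The stricter TGATGCAAT, with no free base, was in 1 of the 17 cytosolic genes (TARS1), 0 of the 14 mitochondrial genes and 0.236% of all promoters, so the count of cytosolic genes with a match depends on the form searched. The full promoter of AARS1, the gene with the largest fall among the members, shows how far upstream its match lies, with its first base at −188 from the annotated start.
AARS1, chr16:70289457-70289756, minus strand: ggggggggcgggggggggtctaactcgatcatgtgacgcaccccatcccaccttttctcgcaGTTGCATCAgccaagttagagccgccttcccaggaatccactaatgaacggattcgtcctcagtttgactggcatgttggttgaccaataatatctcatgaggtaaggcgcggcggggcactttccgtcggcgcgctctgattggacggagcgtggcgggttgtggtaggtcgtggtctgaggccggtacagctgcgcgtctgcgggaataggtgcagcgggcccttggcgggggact

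The matches of CARS1, MARS1 and TARS1 lie close to the start, their first bases at −3, −5 and 2 relative to it. GARS1 has its match at −34, upstream of 1 of its 2 annotated starts, and YARS2 at −197. CARS1 and TARS1 likewise have a match at 1 of 2 starts. A gene with several listed promoters has more chances of a match, and among tested genes with only 1 promoter 2.57% held the motif.

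All 7 cytosolic genes with the motif fell, with log2 fold changes from −2.40 for AARS1 to −0.52 for TARS1 and a median of −0.92. Of the 10 cytosolic genes with a promoter and no motif, 7 fell, with a median of −0.42. WARS1, at −1.82, had no match in either of its 2 promoter windows. YARS2, the mitochondrial gene with a match, stood at 0.15 and did not pass (limma adjusted p = 0.49). Across all tested genes, members included, the median was 0.01 with the motif (8.43% called lower of 510 genes) and 0.02 without it (6.86% of 13700).

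**Figure D5:**
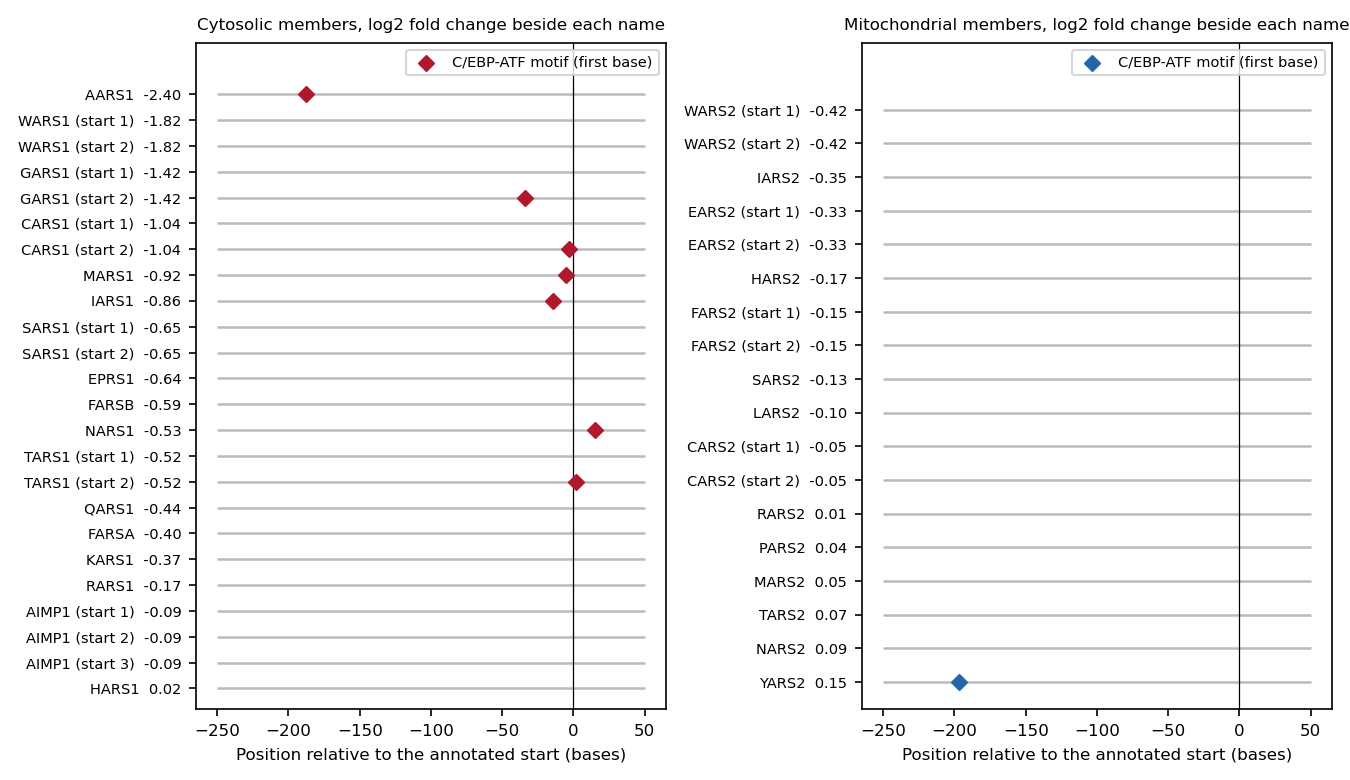
Position of the C/EBP-ATF motif in the promoter windows of 17 cytosolic members (left) and 14 mitochondrial members (right), from 250 bases before to 50 after each annotated start, in order of log2 fold change (DZNep minus DMSO), which is written beside each name. The diamonds mark the first base of each match, near the start in 6 of the 7 cytosolic genes and at −188 in AARS1.

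The remaining genes of tRNA charging and delivery mostly did not pass. From a list of 21 such genes 18 were measured, of which 2 fell and 1 rose, with a median log2 fold change of −0.07. Over all genes 6.68% fell and 3.62% rose, and with 18 genes these counts are too near that background to say anything of the list. DTD2, which removes wrongly attached amino acids from tRNA, had 7.20 and 7.29 with DZNep, against 8.02 and 7.81 with DMSO (−0.67, limma SE 0.11, adjusted p = 0.00451). MTFMT, which formylates the initiator methionyl-tRNA of mitochondria, had 7.82 and 8.03 with DZNep, against 8.33 and 8.30 with DMSO (−0.39, limma adjusted p = 0.0465). With 1 array left out DTD2 stayed between −0.78 and −0.56 and MTFMT between −0.49 and −0.28. MTFMT lost its call with 16 subtracted before log2 (limma adjusted p = 0.0895).

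ATF4 itself had 9.76 and 9.90 with DZNep, against 9.47 and 9.47 with DMSO (0.36, limma adjusted p = 0.0473), opposite in sign to the cytosolic synthetases called lower. The ATF4 call was lost with a replicate block (limma adjusted p = 0.0526), under median centring (0.0837) and with 16 subtracted before log2 (0.0991). ATF4 also lost the call with every probe set tested (limma adjusted p = 0.0844). Its value stayed between 0.29 and 0.43 with 1 array left out. The kinase gene EIF2AK4, which encodes GCN2, had a change of 0.09 and did not pass. The elongation factor genes that carry charged tRNA to the ribosome had values of −0.06 for EEF1A1 in the cytosol and −0.09 for TUFM in mitochondria, neither past the threshold. The 3 subunit genes of the mitochondrial glutaminyl-tRNA amidotransferase, QRSL1, GATB and GATC, which replaces a mitochondrial glutaminyl enzyme, had values between −0.21 and 0.04, and none passed.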

How the data were processed

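Total RNA was measured on 4 Affymetrix whole-transcript arrays, 2 with DZNep and 2 with DMSO, grouped by sample title. The deposited table holds 1 linear intensity for each of 28869 probe sets and each array, and the submitters' processing notes name RMA as the authors' tool. Its version and the genome build were not given in the sources used. The lowest intensities lay between 18.1 and 18.5. Whether a constant was added is unknown, and one would shrink changes of dim genes. The values proved linear, so log2 was taken directly, without a pseudocount or renormalization.

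Probe sets were named through the platform annotation, which can be old (19310 with 1 symbol, 1752 with several, 7807 unnamed). The brightest single-symbol probe set stood for each of 18377 genes, with no filter. The fit was limma 3.58.1 in R 4.3.3 (lmFit, eBayes without trend, no term but group, two-sided). P-values were Benjamini-Hochberg adjusted across the 18377 genes, with a threshold of 0.05, 2 residual and 7.18 prior degrees of freedom. On simulated arrays (10 simulations of 18377 genes, 200 changed) log2 changes of 0.5 were recovered in 29.9% of cases and those of 1 in 99.3%, and 5.42% of calls were false. The simulated noise was independent between genes, and 1227 lower and 665 higher genes were called in the data. These rates therefore need not hold for the real arrays.

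Every member was named. The members, lists, tests and alternatives were chosen with earlier results of these data known. Alternatives were the replicate block, filters on dim genes, 3 normalizations, an intensity trend, the mean over probe sets, 16 subtracted before log2, every probe set tested and each array left out. The crossed replicate block and the motif forms without a free base were chosen after seeing the data. Protein sequences were not used here. The sequences of 2 promoter matches are not reported here.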

Additional observations from a re-analysis of the deposited data

How the results depend on the processing

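Of 20 cytosolic genes, 16 were lower under most settings that kept all 4 arrays, and 13 with 16 subtracted before log2. Some of these calls were lost with an array left out, but such calls are not comparable and are not counted here. None was higher under any setting tried, and the cytosolic gene had the lower value in 16 of 17 pairs under each. The cytosolic median was −0.50 after quantile normalization and −0.51 after cyclic loess. Of the mitochondrial genes, 1 was lower with a replicate block or 16 subtracted. The number higher was 0 under median centring or with 16 subtracted. The mitochondrial median ranged from −0.0722 to 0.0147 with an array left out. Related genes lower numbered 4 without the dimmest 50% of genes or with an intensity trend, 1 with 16 subtracted, and 1 to 2 with an array left out. Related genes higher numbered 0 with a replicate block, median centring or 16 subtracted. Over all genes 734 to 1662 were lower and 336 to 776 higher with an array left out. The cause of these changes was not tested.

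The replicate block left 16 cytosolic genes lower and gave 1353 lower and 754 higher genes in all. Of the members it changed only the call of IARS2 (limma adjusted p = 0.0673). The deviations of same-numbered arrays had a weak negative correlation (r = −0.22). With so few arrays this value cannot decide whether the numbers pair the samples, and the labels do not say. A crossed replicate block, chosen after seeing the data, gave 1690 lower and 1034 higher genes. EARS2 was called lower without the dimmest 25% or 50% of genes and after quantile or cyclic loess normalization (limma adjusted p of 0.0227 to 0.0442). It was also called lower with the crossed block. With every probe set tested, the members FARSA, KARS1, IARS2 and VARS2 lost their calls, as did ATF4 and MTFMT.

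Signs turned only in genes that were not called. HARS1 was at −0.00906 and RARS2 at −0.027 under median centring. VARS1 was at 0.0609 after quantile normalization and 0.0341 after cyclic loess, CARS2 at 0.00169 after quantile normalization and EEF1A1 at 0.0106 after cyclic loess. With an array left out, VARS1 ranged from −0.0581 to 0.0505, AIMP1 from −0.223 to 0.0336, AARS2 from −0.0821 to 0.0163 and CARS2 from −0.121 to 0.0243. FARS2 ranged from −0.304 to 0.0131, PARS2 from −0.0646 to 0.145 and RARS2 from −0.0876 to 0.0986. GATB ranged from −0.117 to 0.187 and GATC from −0.0752 to 0.152. Signal over background was not analysed here, so its limit on the dimmest members, at a log2 intensity of 7.38, is unknown.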
